A study of Arabidopsis thaliana with 12 samples.

Results

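The N-terminal acetyltransferases (NATs) of Arabidopsis (Arabidopsis thaliana) were described here at the level of their transcripts, as 10 genes out of 33685 listed for all lines. The members were chosen by locus, as genes of NatA, NatB, NatC, NatD and NatF, and are called subunits below. Those of NatA are NAA10 (AT5G13780), NAA15 (AT1G80410), NAA50 (AT5G11340) and HYPK (AT3G06610). NatB has NAA20 (AT1G03150) and NAA25 (AT5G58450), and NatC has NAA30 (AT2G38130) and NAA35 (AT2G11000). NAA40 (AT1G18335) is NatD, and NAA60 (AT5G16800) is NatF. Poly(A) RNA from pooled, untreated, 10-day-old whole seedlings in the Col-0 background was sequenced, with 3 libraries for each of 4 groups. The first group, doa10a/b RNAi 4-2, carries a T-DNA insertion in AtDOA10A and an RNAi construct against AtDOA10B, and is a single transformed line. The study's RNAi constructs were aimed at the first and the second exon of AtDOA10B, and which of them this line carries is not stated. The second, amiNAA10, expresses an artificial microRNA against NAA10, and the third, naa20, is named as a mutant of NAA20. The last is wild type (WT, Col-0), which carries none of these alleles. By the study's methods the libraries of a group are biological replicates, each from a pool of seedlings.

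NATs transfer an acetyl group from acetyl-CoA to the first residue of a protein, mostly while it is still leaving the ribosome. Which complex acts is read mainly from the residue after the initiator methionine. NatA acts on small residues exposed once the methionine has been removed, NatB keeps the methionine and acts where an acidic residue or its amide follows, and NatC acts on methionine before many hydrophobic residues. NatD acetylates histone tails, and the plant NatF sits at the plasma membrane. In NatA and NatB a catalytic subunit (NAA10, NAA20) is held to the ribosome by a large auxiliary subunit (NAA15, NAA25). HYPK binds NatA, and NAA50 is a further catalytic subunit that associates with it.

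The first 30 coding bases of the subunits of NatA and NatB, the complexes whose catalytic genes the amiNAA10 and naa20 lines are named for, are shown because the second codon, in capitals, sets the NAT class of each subunit itself. They are given in the coding direction, as read from RefSeq on TAIR10.1.
NAA10 (chr5:4448574-4448603, minus strand): atgGTTtgcatcaggcgagcgacggtggat
NAA15 (chr1:30234803-30234832, minus strand): atgGGGgcttcgcttcctcctaaggaggcc
NAA50 (chr5:3619226-3619255, plus strand): atgGGAgctgggagagaagtcagcgtatcg
HYPK (chr3:2060837-2060866, plus strand): atgGAGggagcagaggaagctggggctgag
NAA20 (chr1:756461-756490, plus strand): atgACGacgatacgtagattcagctgcaat
NAA25 (chr5:23626826-23626855, plus strand): atgCGCaggtggggactatgggagcaggag

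All of these stretches lie in the first coding exon. Among the 10 members, 5 have a second codon for a small residue of the NatA class (NAA10, NAA15, NAA50, NAA20 and NAA60), against 51.7% of 27390 coding genes that start with ATG. A codon of the NatB class follows the start in 4 (HYPK, NAA30, NAA35 and NAA40), against 23.4% of those genes, and NAA25 falls in neither class. This reading of the codons is a description and no measure of acetylation. NAA35 and NAA25 each have 2 annotated coding starts, so their class depends on the gene model used, which here was the longest.

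The authors' tables hold 1 mean of normalized counts per gene and line. These means were printed with enough digits that the 3 whole read counts behind a mean could be solved, for 37 of the 40 member and line combinations. NAA15 in amiNAA10 and in naa20, and NAA10 in naa20, were too abundant to be solved, and only their means are given. Values of amiNAA10 and naa20 were divided by 1.15 and 1.07, the factors that set the median ratio to WT over all genes to 1 (median shifts of 0.21 and 0.10 on the log2 scale), and are called scaled normalized counts. The WT libraries used throughout are those deposited with doa10a/b RNAi 4-2. The tables of the 2 NAT lines hold WT columns of their own, the controls of the study's analysis of these lines, which its data statement assigns to a different series and which were not used here. The ratios of amiNAA10 and naa20 to WT are therefore taken across tables that were normalized separately, a difference between tables and a difference between lines cannot be told apart, and no test was run across tables. Among the groups used, doa10a/b RNAi 4-2 and WT stand in 1 table and were tested.

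The means of a line summed to between 20338996 and 21639733 normalized counts. The targets of the RNAi line were measured first. AtDOA10A (AT4G34100) averaged 842 scaled normalized counts in doa10a/b RNAi 4-2, against 2272 in WT (limma, adjusted p = 7.11e-06). AtDOA10B (AT4G32670), the target of the RNAi construct, averaged 512 in doa10a/b RNAi 4-2, against 282 in WT (limma, adjusted p = 5.21e-04), so these counts were higher and not lower. They are summed over the gene and do not show which part of a transcript the reads cover, the targeted exons included. Shoot and root markers were found in every line. The 4 shoot markers summed to 627542 scaled normalized counts in doa10a/b RNAi 4-2, 418676 in amiNAA10, 614768 in naa20 and 629362 in WT. The 4 root markers, EXPA7, COBL9, PRP3 and AT5G47450, summed to 1009 in doa10a/b RNAi 4-2, 1074 in amiNAA10, 518 in naa20 and 1252 in WT. In naa20 all 4 were lower in every library. In amiNAA10 AT5G47450 was lower in every library (log2 ratio -1.04), while EXPA7 (0.33), COBL9 (-0.18) and PRP3 (-0.12) overlapped WT. Among 4 seed storage genes, CRU2 was at 0 in every line and SESA4 had at most 1 read in a library. CRA1, a cruciferin of the seed, had 15, 457 and 1 reads in the 3 amiNAA10 libraries, against 0, 1 and 1 in WT. A second cruciferin, CRU3, had 42 reads in the same amiNAA10 library (b) and 0 in the other two, so that library stands apart. The part of the shoot, root and seed markers in the results below was not tested, and in bulk seedlings fewer cells of a type and less RNA per cell cannot be told apart.

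Each NAT line had a single subunit past 1.5-fold, and it was the gene the line is named for, but in opposite directions. NAA10 was 8.24-fold lower in amiNAA10 than in WT. NAA20 was 2.41-fold higher in the libraries labelled naa20 than in WT. In doa10a/b RNAi 4-2 none of the 10 subunits was past 1.5-fold. All 10 passed the filter of an average mean of at least 10 in every comparison. Among all genes that passed it, 15.3% were past 1.5-fold in either direction in amiNAA10 over WT, 13.3% in naa20 over WT and 3.54% in doa10a/b RNAi 4-2 over WT, so 1, 1 and 0 of 10 members are no more than these shares.

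**Figure D1:**
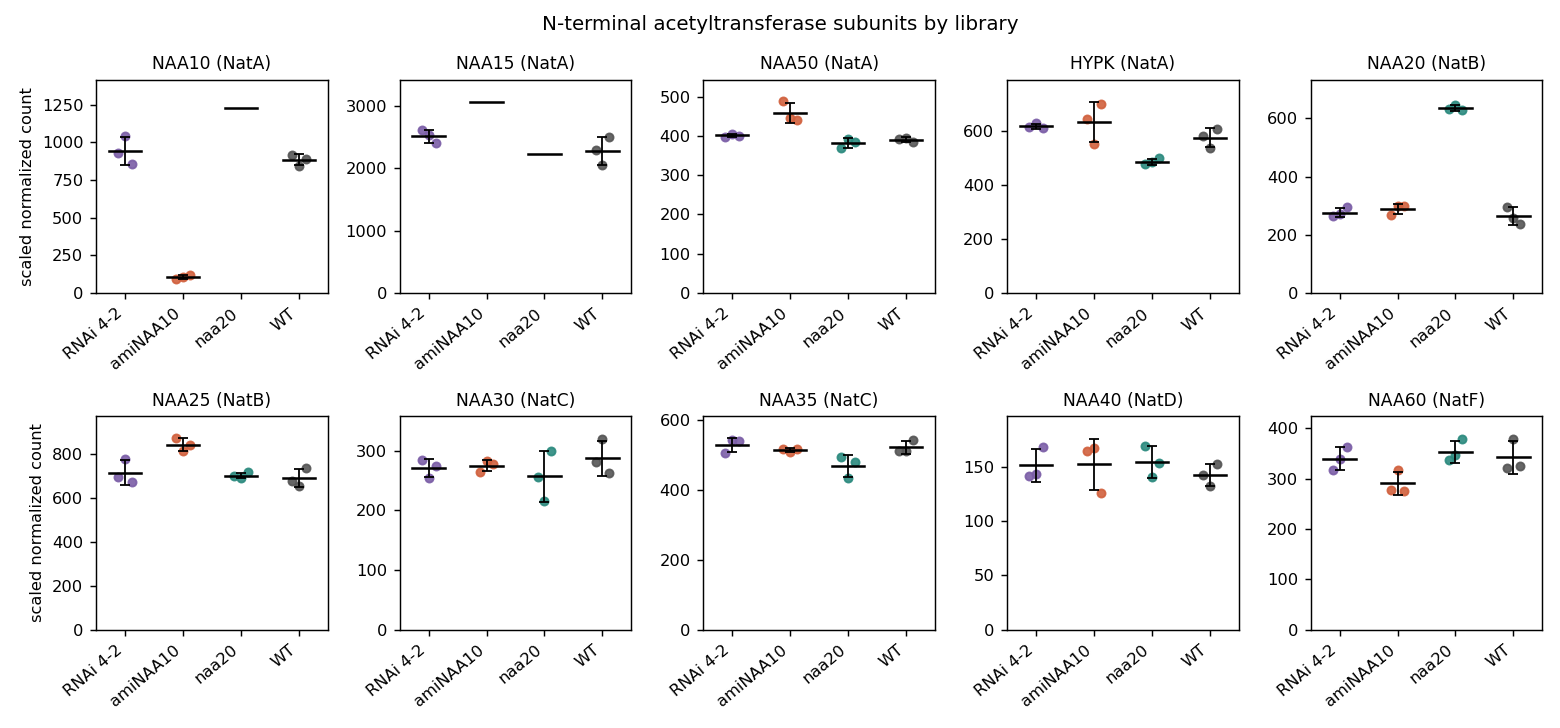
Scaled normalized counts of the 10 subunits (vertical axes from 0) in doa10a/b RNAi 4-2, amiNAA10, naa20 and WT. Points are single libraries, the long bar is the mean and the error bar the SD over 3 libraries, and a bar without points is a mean whose libraries were not solved. NAA10 lies near 107 in amiNAA10 and NAA20 near 635 in naa20, while in the other panels no line is past 1.5-fold from WT.

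Of the NatA genes, NAA10, the catalytic subunit, had 93.9, 109 and 117 scaled normalized counts in the amiNAA10 libraries, against 918, 845 and 892 in the WT libraries. Every amiNAA10 library was far below every WT library. The means were 107 ± 11.8 in amiNAA10 and 885 ± 37.4 in WT (SD, n = 3 each), a log2 ratio of -3.04 with a 95% counting interval of -3.19 to -2.89, which covers counting error only. Without library b, the one with the cruciferin reads, the log2 ratio was -3.06. Only 15 of 20212 genes had a lower ratio, which ranks NAA10 number 16 from the bottom. The transcript was thus lower but still read in every library, with 123, 139 and 141 reads.

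In the other lines NAA10 was not lower. It had 932, 1044 and 853 scaled normalized counts in doa10a/b RNAi 4-2, which overlap the WT values. Its mean was 1230 in naa20, against 885 in WT (log2 ratio 0.47, counting interval 0.40 to 0.55). Within 30% of that mean, the only range searched, 3 sets of whole counts would give it. In each of the 3 every naa20 library lay above every WT library. The lowest library in these sets was 1121, against a highest WT library of 918. By its mean, NAA10 in naa20 was the second largest difference among the subunits in that line, below 1.5-fold.

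NAA15, the large subunit that anchors NAA10 to the ribosome, was not lower along with NAA10 in amiNAA10. It averaged 3061 scaled normalized counts in amiNAA10, against 2280 ± 225 in WT (SD, n = 3 for WT), a log2 ratio of 0.42 with a counting interval of 0.38 to 0.47. Of 15 sets of counts found within 30% of this mean, 10 place every amiNAA10 library above every WT library. Whether the libraries overlap is therefore not known. Without centring the ratio was 0.63 and past 1.5-fold. In naa20 the mean was 2234, within the WT range of 2049 to 2500. In doa10a/b RNAi 4-2 the libraries had 2613, 2534 and 2399, against 2292, 2049 and 2500 in WT, and the groups overlap.

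NAA50, a catalytic subunit with a substrate range of its own, had 488, 447 and 441 scaled normalized counts in amiNAA10, against 392, 396 and 384 in WT. All 3 amiNAA10 libraries were higher (log2 ratio 0.23, counting interval 0.12 to 0.34), also under the other scalings. The naa20 libraries had 369, 392 and 385 and overlap WT. In doa10a/b RNAi 4-2 the values of 398, 405 and 401 were all above those of WT, by a log2 ratio of only 0.04, and the groups overlapped when the columns were set to the same sum.

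HYPK, the small protein that binds NatA, was lower in naa20. It had 478, 487 and 500 scaled normalized counts in the naa20 libraries, against 583, 539 and 608 in the WT libraries, and the groups do not overlap under any scaling tried. The log2 ratio was -0.24 (counting interval -0.34 to -0.14). In doa10a/b RNAi 4-2 its values of 616, 631 and 614 were all higher than in WT, with a log2 ratio of 0.10, but not when the columns were set to the same sum. The amiNAA10 libraries spread from 554 to 701 and overlap WT, the lowest of them being library b, but all lay above WT without centring (log2 ratio 0.34 in place of 0.14).

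**Figure D2:**
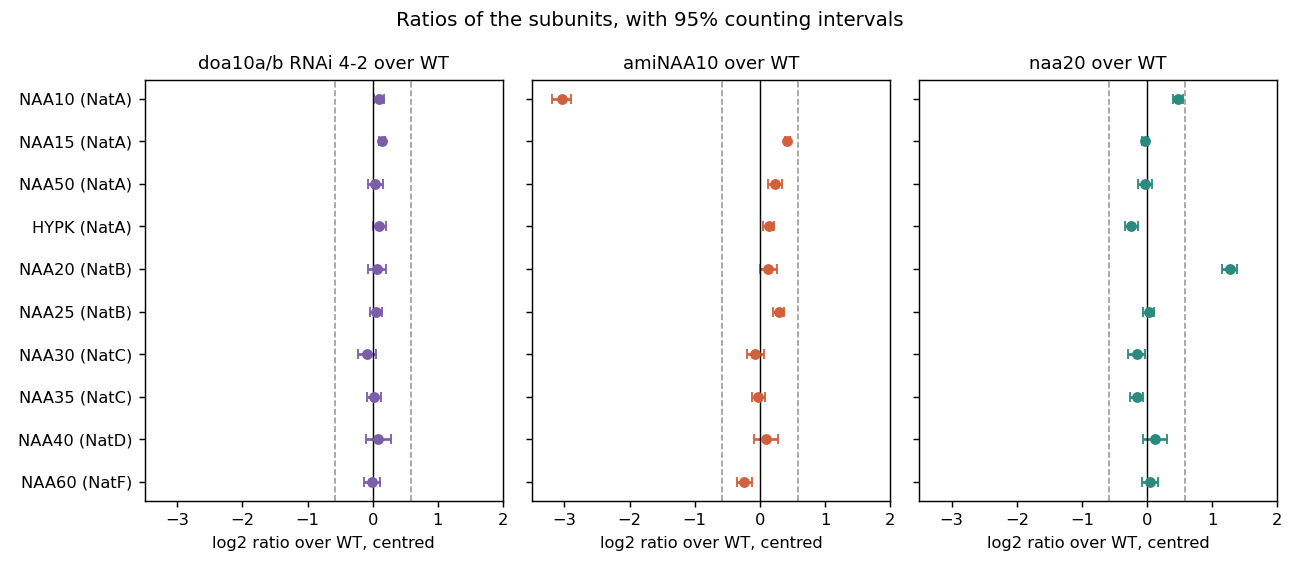
Centred log2 ratio over WT (horizontal axis) of the 10 subunits in doa10a/b RNAi 4-2, amiNAA10 and naa20. Points are ratios of the line means, horizontal bars 95% counting intervals and dashed lines 1.5-fold. NAA10 at -3.04 in amiNAA10 and NAA20 at 1.27 in naa20 are the points beyond the dashed lines.

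Of the NatB genes, NAA20, the catalytic subunit, had 631, 646 and 628 scaled normalized counts in the libraries labelled naa20, against 297, 256 and 236 in the WT libraries. Every library labelled naa20 was more than 1.5-fold above every WT library. The means were 635 ± 9.62 in naa20 and 263 ± 31.2 in WT (SD, n = 3 each), a log2 ratio of 1.27 with a counting interval of 1.15 to 1.39, and 214 of 20168 genes had a higher ratio. The counts were thus higher and not lower in a line named as a mutant of NAA20. Since they are summed over the gene, they do not say whether an intact transcript was read. NAA20 had 267, 299 and 299 in amiNAA10 and 264, 271 and 295 in doa10a/b RNAi 4-2, and both lines overlap WT, except that without centring every amiNAA10 library lay above WT (log2 ratio 0.34 in place of 0.13).

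NAA25, the auxiliary subunit of NatB, was not higher along with NAA20 in naa20. It had 701, 690 and 716 scaled normalized counts in the naa20 libraries, against 679, 655 and 735 in the WT libraries, and the naa20 values lie inside the WT range. Without centring they all lay above it, with a log2 ratio of 0.13 in place of 0.03. In amiNAA10 it had 872, 814 and 841, all above WT, with a log2 ratio of 0.29 (counting interval 0.21 to 0.37) that also held under the other scalings. The libraries of doa10a/b RNAi 4-2, from 673 to 780, overlap WT.

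Of the NatC genes, NAA30, the catalytic subunit, overlapped WT in every line. It averaged 271 ± 15.5 in doa10a/b RNAi 4-2, 275 ± 9.38 in amiNAA10, 257 ± 42.4 in naa20 and 288 ± 29.4 in WT (SD, n = 3 each). NAA35, the auxiliary subunit of NatC, had 494, 433 and 479 scaled normalized counts in naa20, against 512, 512 and 544 in WT. The naa20 libraries were all lower (log2 ratio -0.16), but overlapped WT without centring. In doa10a/b RNAi 4-2 and amiNAA10 NAA35 overlapped WT. In amiNAA10 its log2 ratio of -0.02 turned to 0.18 without centring and 0.10 with columns set to the same sum, and its libraries then lay above those of WT.

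NAA40, the histone acetyltransferase, had the lowest mean of the subunits in doa10a/b RNAi 4-2, naa20 and WT, and in amiNAA10 the lowest after NAA10. It overlapped WT in every line, with means of 151 ± 15.2 in doa10a/b RNAi 4-2, 153 ± 23.5 in amiNAA10, 155 ± 14.6 in naa20 and 142 ± 10.5 in WT (SD, n = 3 each). NAA60, the membrane-bound enzyme, had 278, 317 and 276 in amiNAA10, against 322, 379 and 326 in WT. The amiNAA10 libraries were lower (log2 ratio -0.24, counting interval -0.36 to -0.11), the highest of them being library b, but the groups overlapped under both other scalings. NAA60 overlapped WT in naa20, with 336 to 378, and in doa10a/b RNAi 4-2, with 318 to 363.

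Counted over the subunits whose libraries were solved in both groups, the libraries did not overlap WT for 2 of 10 in doa10a/b RNAi 4-2, 4 of 9 in amiNAA10 and 3 of 8 in naa20. Over all solved genes past the filter this held for 22.1% in doa10a/b RNAi 4-2, 46.3% in amiNAA10 and 41.0% in naa20. Without centring the counts were 2, 6 and 3 subunits in the same order of lines, against 22.0%, 54.7% and 43.2% of genes. With columns set to the same sum they were 0, 4 and 3, against 21.9%, 49.5% and 41.0%. These tallies thus depend on the scaling, and nothing is read from them about the subunits. With 3 libraries against 3, an exact permutation test of a single gene cannot give a two-sided p below 0.1.

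Within the shared table, doa10a/b RNAi 4-2 and WT were compared by limma on the solved counts. None of the 10 subunits was called at an adjusted p under 0.05, and none had an unadjusted p under 0.05, against 489 calls, or 2.45%, of 19992 genes tested, and 16.9% of those genes with an unadjusted p under 0.05. The lowest adjusted p was that of NAA15, with a log2 fold change of 0.14 ± 0.08 (SE; limma, adjusted p = 0.367). The 95% limma intervals of the fold changes of all 10 lay between 0.809-fold and 1.27-fold, both limits being reached by NAA30 and NAA40, the subunits with some of the lowest counts. A missed threshold does not show that the lines are alike, but these intervals leave out changes of 1.5-fold or more in this line.

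**Figure D3:**
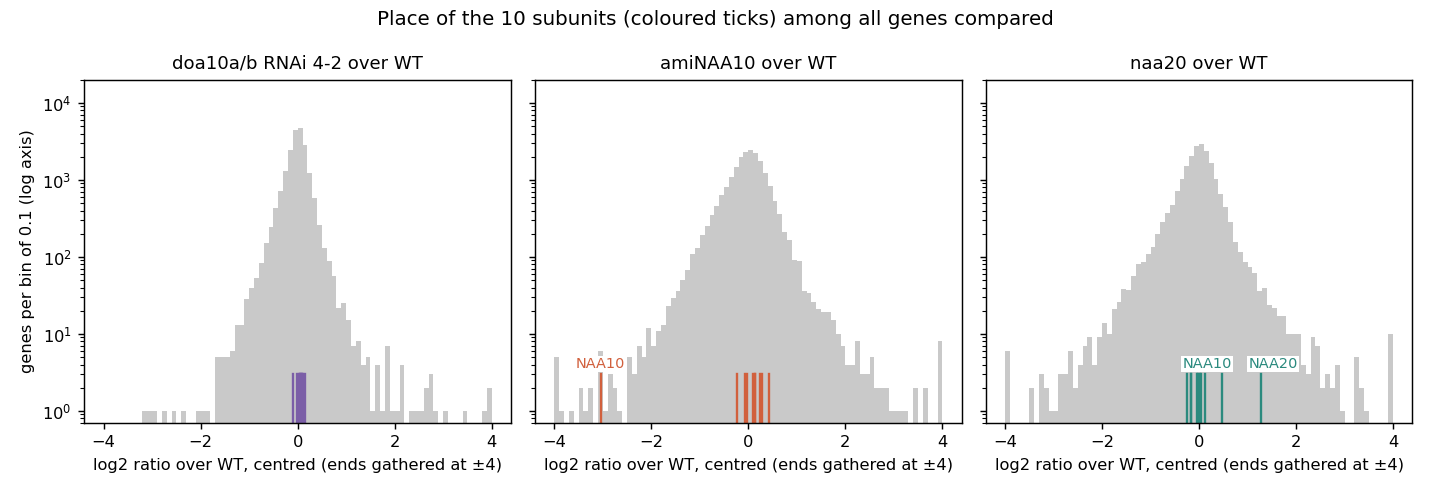
Number of genes per 0.1 of centred log2 ratio over WT (vertical log axis; ratios beyond 4 in size gathered at the ends) for doa10a/b RNAi 4-2, amiNAA10 and naa20, with the 10 subunits as coloured ticks. In doa10a/b RNAi 4-2 all ticks lie between -0.09 and 0.14. NAA10 stands at the far left in amiNAA10 and NAA20 towards the right in naa20.

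Set beside all genes, the remaining subunits stayed in the bulk. The median log2 ratio of the 10 was 0.06 in doa10a/b RNAi 4-2, 0.11 in amiNAA10 and 0.00 in naa20, where the median of all genes is 0 by construction. The 9 subunits other than NAA10 ranged from -0.24 to 0.42 in amiNAA10, and the 9 other than NAA20 from -0.24 to 0.47 in naa20. Over all genes, the 5th and the 95th percentiles were -0.42 and 0.33 in doa10a/b RNAi 4-2, -0.78 and 0.64 in amiNAA10, and -0.75 and 0.60 in naa20. When amiNAA10 was set directly over naa20, NAA10 (log2 ratio -3.51) and NAA20 (-1.13) were past 1.5-fold, both lower in amiNAA10, against 18.5% of all genes. The amiNAA10 and naa20 ratios over WT share the same WT libraries.

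Levels of different genes were compared per kb of coding sequence. In WT the order from the top was HYPK (1658 scaled normalized counts per kb), NAA10 (1528), NAA15 (833), NAA50 (789), NAA30 (502), NAA20 (501), NAA60 (416), NAA35 (239), NAA25 (216) and NAA40 (171). The NatA genes took the highest places in this order. Counts are summed over the gene but were divided by coding length only, which runs from 348 bases in HYPK to 3198 in NAA25. The order therefore also depends on that choice of length. HYPK and NAA10 overlap in their libraries, as do NAA15 and NAA50, and NAA30 with NAA20 and NAA20 with NAA60, whereas each other step in this order was larger than the spread. In amiNAA10 NAA10 stood at 184 per kb, in place 9, and overlapped NAA40 at 183. In naa20 NAA20 stood at 1209 per kb, in place 3, below NAA10 at 2125 and HYPK at 1403.

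Partner subunits of a complex were set against each other as ratios of levels per kb. NAA25 over NAA20 was 0.182 in naa20 (libraries 0.175 to 0.187), against 0.430 in WT (0.375 to 0.512), and the ranges do not overlap. HYPK over NAA10 was 9.89 in amiNAA10 (8.47 to 11.5), against 1.08 in WT (1.06 to 1.13). NAA15 over NAA10 was 6.08 in amiNAA10, against 0.545 in WT. NAA35 over NAA30 was between 0.476 and 0.513 in all 4 groups, so the NatC pair kept its ratio within the spread of WT (0.419 to 0.543). Since these ratios are taken within a line, they do not depend on the scaling between tables.

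**Figure D4:**
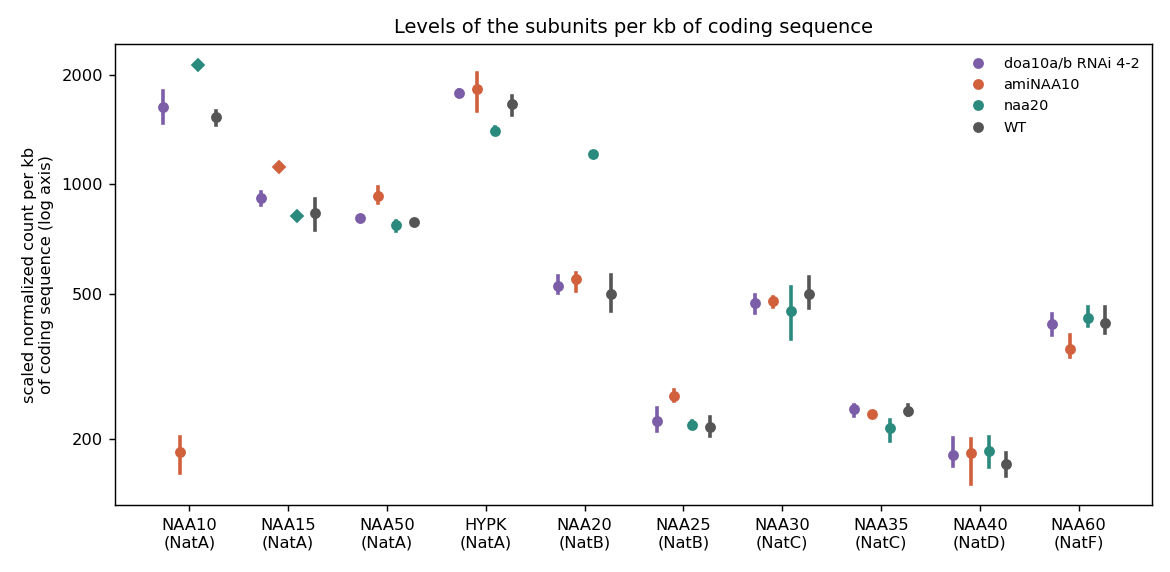
Scaled normalized counts per kb of coding sequence (vertical log axis) of the 10 subunits in doa10a/b RNAi 4-2, amiNAA10, naa20 and WT. Circles are means with vertical bars over the range of 3 libraries, and diamonds are means whose libraries were not solved. HYPK and NAA10 lie highest in WT, NAA10 in amiNAA10 lies at 184 and NAA20 in naa20 at 1209.

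The genes around the 2 targeted loci were read to see how far the differences extend along the chromosome. NAA10 lies at chr5:4447259-4448675 on the minus strand, and its end overlaps that of AT5G13770 on the plus strand by 218 bases. As strand-specific counting is not stated, reads in an overlap cannot be assigned to a gene with certainty. AT5G13770 averaged 2340 scaled normalized counts in amiNAA10, against 2376 in WT, and the next locus, AT5G13760, averaged 439 against 383. On the other side, AGL15, a MADS-box transcription factor, averaged 36.2 in amiNAA10, against 39.0 in WT, and PPH, a chlorophyll breakdown enzyme, averaged 832 against 1015. The 4 neighbours of NAA10 thus had log2 ratios from -0.29 to 0.20 in amiNAA10, none of them past 1.5-fold. Every amiNAA10 library was above WT for AT5G13760 (430 to 444, against 364 to 402) and below it for PPH (780 to 893, against 955 to 1085). AGL15 overlapped WT, and AT5G13770 was not solved in amiNAA10. Over all solved genes, 46.3% did not overlap WT in that line.

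NAA20 lies at chr1:756414-758678 on the plus strand and overlaps no other annotated gene. Here some neighbours were past 1.5-fold. FZL, a dynamin-like GTPase of the chloroplast and the next gene downstream, averaged 1698 in naa20, against 1037 in WT, a log2 ratio of 0.71, and had a log2 ratio of 0.50 in amiNAA10. FAF2, the second locus downstream, had libraries from 18.4 to 29.3 in naa20, against 8.17 to 10.9 in WT (log2 ratio 1.19), and a log2 ratio of -0.84 in amiNAA10, where its average mean was under the filter. Upstream, AT1G03140 averaged 897 in naa20, against 845 in WT, with overlapping libraries, and PSAD-2, a subunit of photosystem I, averaged 9597 against 15249 (log2 ratio -0.67), with a lower ratio still in amiNAA10 (-0.86). So 3 of the 4 neighbours were past 1.5-fold in naa20, in both directions, where 13.3% of all genes were. Of these, PSAD-2 was past 1.5-fold in the same direction in amiNAA10. FAF2 went the other way there, from low counts, and FZL was higher there but not past 1.5-fold. Whether the differences of NAA20, FZL and FAF2 in naa20 are linked was not tested.

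**Figure D5:**
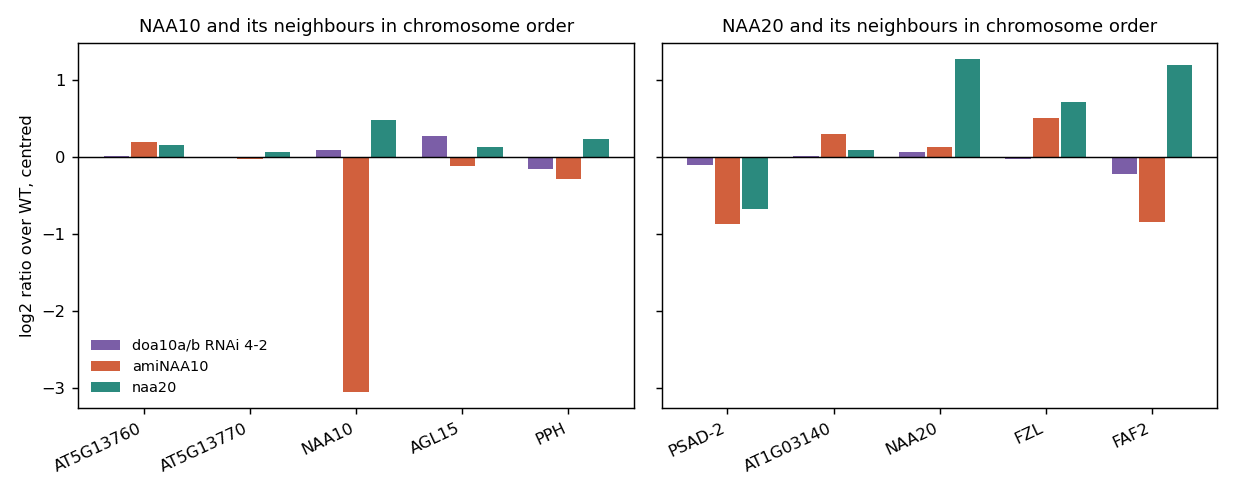
Centred log2 ratio over WT (vertical axis) of NAA10 (left) and NAA20 (right) with the 2 annotated loci on either side in chromosome order. Bars are doa10a/b RNAi 4-2, amiNAA10 and naa20. NAA10 in amiNAA10 reaches -3.04 with neighbours between -0.29 and 0.20, whereas NAA20 in naa20 reaches 1.27 beside FZL at 0.71 and FAF2 at 1.19.

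Other members overlap genes as well, so part of their reads is uncertain in the same way. NAA15 shares up to 443 bases with 1 of 2 genes on the opposite strand, NAA25 132 bases and HYPK 23 bases with 1 such gene each, and NAA50 58 bases with AT5G11350 on its own strand. NAA30, NAA35, NAA40 and NAA60 overlap none.

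The genes most like NAA10 and NAA20 were found by the distance between their 3 centred log2 ratios over WT, among 17153 genes with a mean of at least 50. Nearest to NAA10 was HAK5, a potassium transporter, at a distance of 0.85, with ratios of -0.14 in doa10a/b RNAi 4-2, -2.71 in amiNAA10 and -0.27 in naa20. It was followed by SAG29, a sugar transporter (distance 0.87), and AT5G26220 (0.91). For NAA20 the nearest were OCT1, an organic cation transporter (distance 0.19), AHP4, a phosphotransfer protein (0.20), and THIC, an enzyme of thiamine synthesis (0.25), which had a ratio of 1.27 in naa20. NAA10 in amiNAA10 ranked 16 from the bottom of the genes compared, so few genes can lie near it. The distances are therefore not compared between NAA10 and NAA20. All of these are likenesses over 3 line means that share WT.

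Other proteins that act on protein starts or bind new chains were counted as lists. Of 8 methionine aminopeptidases and deformylases, 1 was past 1.5-fold in amiNAA10. It was AT1G13270, an organellar aminopeptidase with a log2 ratio of 0.87 (677 in amiNAA10, against 369 in WT). None of the 8 was past 1.5-fold in naa20 or doa10a/b RNAi 4-2. The list medians were 0.23 in amiNAA10, 0.13 in naa20 and 0.05 in doa10a/b RNAi 4-2. Of 8 plastid acetyltransferases of the GNAT family, 7 passed the filter and GNAT1 was listed at 0 in every line. One of the 7, GNAT7 (AT4G28030), was past 1.5-fold in amiNAA10, at 992 against 1495 in WT (log2 ratio -0.59), and none was in the other lines. The ratio of GNAT7 lies close to the threshold of 0.585 in size. Without the centring shift of 0.21 it would not be past 1.5-fold. The medians were 0.02 in amiNAA10, 0.18 in naa20 and 0.02 in doa10a/b RNAi 4-2.

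The nascent polypeptide-associated complex, which binds new chains at the same ribosomal exit as the NATs, had no member of 7 past 1.5-fold over WT in any line. Its medians were 0.26 in amiNAA10, -0.31 in naa20 and 0.16 in doa10a/b RNAi 4-2. The largest difference in naa20 was that of BTF3, its beta subunit, with a log2 ratio of -0.55 (2019 in naa20, against 2964 in WT). With amiNAA10 set over naa20, 3 of the 7 were past 1.5-fold, all higher in amiNAA10. These counts of lists can be read against the backgrounds given above, and nothing particular to a list is drawn from them.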

How the data were processed

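Members and gene lists were chosen with earlier results of these data known. Poly(A) libraries, 3 each of doa10a/b RNAi 4-2, amiNAA10, naa20 and WT seedlings, were used. The authors' deposited tables give signal values, means over the 3 libraries of a line of gene counts divided by size factors. In the submitters' processing notes the build is TAIR10, the tools being HTSeq 0.6.1 for counts, DESeq 1.18.0, and TopHat2 2.0.12 with Bowtie2 2.2.3, whereas the methods name HISAT2, so the aligner is not settled. The tables also hold the authors' log2 fold changes, p-values, adjusted p-values and calls, which were not used. Another 2 columns of WT means, which the study's data statement assigns to a different series, were not used either.

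In each column, genes with 1 read show 3 recurring values, 1 per library. With these, the whole counts behind a mean were solved for 99.9% (doa10a/b RNAi 4-2), 99.7% (WT), 85.9% (amiNAA10) and 86.8% (naa20) of transcripts, where 1 solution existed. Means up to 60 were searched over every combination of counts, and larger ones with each library within 60% of the mean. Seed storage genes left unsolved, such as CRA1 in amiNAA10, were searched again over every combination. In the NAT lines the lowest mean not searched was 1000.2, as larger means allow several solutions by chance. On simulated tables with the size factors of WT and naa20, 2000 of 2000 genes were solved correctly in each. Only genes under a limit on the mean were drawn, which for naa20 was below the lowest mean not searched. The check therefore does not cover the sets of counts found for NAA15 and NAA10 where unsolved. Nor does it cover the wider search used for CRA1 in amiNAA10. Solved libraries are called a, b and c and carry no replicate number. The largest deviation of a library from its mean was 5.51% to 6.89% in the median gene with a mean of at least 300. No pair of libraries of a line agreed within sampling noise.

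The main value is log2((mean + 1)/(mean + 1)), centred on its median over genes with an average mean of at least 10, so it slightly understates differences of low genes. A gene was counted when past 1.5-fold. Intervals cover counting error only. doa10a/b RNAi 4-2 and WT were compared with limma 3.58.1 in R 4.3.3 on log2(normalized count + 0.5), with a trend and Benjamini-Hochberg adjustment over all 19992 genes, a test added after seeing the data. All 10 members are named. Of each list at most 4 genes past 1.5-fold, the 2 loci on either side of NAA10 and NAA20, and the 3 genes nearest to each in their ratios are named too. BTF3 was chosen after its values were seen. Alternatives were other scalings, filters, pseudocounts, folds and single libraries left out. Coding starts and lengths were read from the RefSeq annotation of TAIR10.1 for all 10 members, with the longest coding model.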

Additional observations from a re-analysis of the deposited data

Results flagged for a closer look

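NAA10 was lower than WT in amiNAA10 and higher than WT in naa20. Every amiNAA10 library was below every WT library (log2 ratio -3.04), and in each of the 3 sets of counts found within 30% of the naa20 mean every naa20 library was above every WT library (0.47), so the ratios differ by -3.52. The difference was not tested, as the tables were normalized separately. Libraries did not overlap WT for 46.3% of all solved genes past the filter in amiNAA10 and 41.0% in naa20.

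HYPK was lower than WT in every naa20 library (log2 ratio -0.24) and higher than WT in every doa10a/b RNAi 4-2 library (0.10), a difference of -0.34 that was not tested. With columns set to the same sum, the doa10a/b RNAi 4-2 libraries overlapped WT. HYPK was not called in doa10a/b RNAi 4-2 (limma, adjusted p = 0.508). Libraries did not overlap WT for 41.0% of all solved genes past the filter in naa20 and 22.1% in doa10a/b RNAi 4-2. Nothing particular to HYPK is therefore drawn from this.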

How the results depend on the processing

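The number of subunits past 1.5-fold stayed at 0 in doa10a/b RNAi 4-2 over WT under every alternative run. In amiNAA10 over WT it was 2 in place of 1 without centring and when the threshold was lowered to a log2 ratio of 0.32, NAA15 being added. With the lower threshold it was also 2 in place of 1 in naa20 over WT and 4 in place of 2 in amiNAA10 over naa20. The log2 ratio of NAA10 in amiNAA10 was -2.84 without centring, and from -3.12 to -2.96 with single libraries left out. That of NAA20 in naa20 was from 1.20 to 1.36 with single libraries left out. Of 514 further checks of the other 38 member ratios, 33 moved a ratio by more than its counting interval, 17 of them without centring and 9 with columns set to the same sum, and no ratio past 1.5-fold reversed. No subunit was called by limma under any alternative, while the calls over all genes were 40 without the trend, and 98 to 659 with single libraries left out, against 489. The low counts were 224 without library a and 98 without library b of doa10a/b RNAi 4-2, and 201 without library a of WT. No paired analysis was possible because the solved libraries carry no replicate number. Depth was lowest for NAA10 in amiNAA10, with 123 to 141 reads per library, and for NAA40, with 131 to 216. Libraries of NAA15 in amiNAA10 and naa20 and of NAA10 in naa20 could not be left out, as they were not solved.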
